A study of Mus musculus with 8 samples.

Results

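The mitotic kinesins are motor proteins that walk along or disassemble microtubules while a cell divides. The 10 genes described here (Kif11, Kif15, Kif23, Kif20a, Kif20b, Kif4, Kif22, Kif2c, Kif18a and Kif18b) were taken by name from the table of read counts, in which all 10 were present among 53465 Ensembl genes. All 10 passed the filter on low counts that left 17733 genes for testing. RNA was measured by polyA sequencing in Ba/F3, an immortalised mouse cell line of C3H background that is labelled as pro-B. Parental cells carrying wild-type U2AF35 gave 3 libraries (parental 1, 2 and 3), and cells transformed with U2AF35(S34F) gave 5 (transformed 4, 5, 6, 7 and 8). U2AF35, encoded by U2af1, helps to recognise the 3' end of introns, and S34F is a substitution in it. The labels do not say how the altered protein was introduced, whether replicate libraries derive from independent clones or cultures, or whether the growth factor interleukin-3 was supplied. A p-value here measures only how these libraries scatter, which may be technical.

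A dividing cell builds its bipolar spindle with plus-end motors that push the poles apart, lines up its chromosomes with motors that sit on chromatin or on microtubule tips, and then splits with motors that bundle the central spindle. Most of these genes are transcribed late in the cell cycle, in G2 and M phase, by a shared program in which the MuvB complex, with B-Myb and FoxM1, acts through a short promoter element called the cell cycle genes homology region. In a growing culture their transcripts are therefore read as a property of the dividing cells.

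That element was searched for as the letters TTTGAA or TTCGAA on both strands in RefSeq promoter windows of build GRCm38.p6, which run from 250 bases before to 50 bases after the transcript start. The box CCAAT, which often lies upstream of it, was searched for in the same way. Windows were matched by symbol for 9 of the 10 genes, and Kif20a was not analysed here. TTTGAA or TTCGAA lay within 50 bases of the start in 7 of the 9 windows, namely Kif11, Kif15, Kif23, Kif4, Kif20b, Kif18b and Kif22, against 5.29% of 32544 windows of the same length. Over the whole window they were found in 8 of 9, with Kif2c added, against 19.1%. CCAAT was found in 5 of 9 (Kif11, Kif23, Kif4, Kif18b and Kif22), against 37.4%, and both kinds of letters together in those 5 genes, against 7.5% of windows. A match describes the letters and does not show that a factor binds there. The stretches from 75 bases before to 20 bases after the start are printed for 5 genes. In these the RefSeq and GENCODE starts lay within 25 bases of each other. They are the 3 genes called lower in the comparison of transformed with parental cells, and the related Kif18b and Kif18a, with and without the element. Kif15, Kif4, Kif18b and Kif22 also held it within 50 bases of the start and were not called. Its part in the calls was not tested. Capitals mark TTTGAA and CCAAT or their reverse complements, TTCAAA and ATTGG.
Kif11, chr19:37376307-37376401, plus strand: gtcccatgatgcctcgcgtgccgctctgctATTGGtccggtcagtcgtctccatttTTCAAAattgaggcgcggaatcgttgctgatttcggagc
Kif23, chr9:61946780-61946874, minus strand: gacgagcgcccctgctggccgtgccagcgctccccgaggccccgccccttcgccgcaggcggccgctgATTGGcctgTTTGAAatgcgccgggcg
Kif20b, chr19:34922283-34922377, plus strand: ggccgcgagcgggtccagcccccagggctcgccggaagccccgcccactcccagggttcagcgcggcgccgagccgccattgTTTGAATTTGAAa
Kif18b, chr11:102925105-102925199, minus strand: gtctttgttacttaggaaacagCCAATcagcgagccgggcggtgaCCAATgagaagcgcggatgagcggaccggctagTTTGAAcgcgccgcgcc
Kif18a, chr2:109280663-109280757, plus strand: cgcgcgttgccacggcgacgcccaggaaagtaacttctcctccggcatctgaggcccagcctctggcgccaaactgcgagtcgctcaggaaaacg
Kif20b carries TTTGAA in tandem, from base 8 to base 13 and from base 14 to base 19 after the start, and no CCAAT. In Kif23 and Kif18b the element begins at base 3 and base 4 after the start. In Kif11, Kif15 and Kif22 it lies on the other strand just before the start, between bases -19 and -12. None of the searched letters was found in the Kif18a window. The Kif2c match, at bases -103 to -98, belongs to a RefSeq start 3867 bases away from the GENCODE start of the gene, and the Kif4 match, counted among the 7, to one 328 bases away.

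Libraries held between 36122062 counts (transformed 7) and 50305573 counts (parental 1), and the fewest counts for any kinesin were 588, for Kif18a in transformed 7. Levels are given as CPM, the counts of a gene relative to its library total, scaled with TMM factors. U2af1 averaged 91.7 ± 6.47 CPM in the parental group (SD, n = 3), against 131 ± 24.4 CPM after transformation (SD, n = 5), and transformed 7, at 92.0 CPM, lay within the parental range. In edgeR this difference was not called (adjusted p = 0.108), whereas in DESeq2 it was (adjusted p = 0.0352). Gene counts do not separate the S34F form from the endogenous one. Of 18 pro-B cell markers, 4 had counts high enough to be tested. Cd79a was at 43.2 CPM or more in every library, while Rag1 and Il7r had no counts and Pax5 stayed at or below 0.0440 CPM. Summed markers of fibroblasts reached at most 0.424 CPM and those of T cells at most 3.77 CPM. Those of mast cells ranged from 108 to 161 CPM in parental and from 27.5 to 402 CPM in transformed libraries, and those of granulocytes and macrophages from 267 to 375 and from 103 to 418 CPM. Erythroid and megakaryocyte markers were at 431 to 504 CPM in parental and 183 to 338 CPM in transformed libraries. Of these markers 7 were tested and 1 was called lower, where 2.10% of all genes tested were. Their part in the results on kinesins was not tested.

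All 10 mitotic kinesins had negative log2 fold changes (transformed over parental), with a median of -0.40 against 0.02 over all genes tested. Negative values made up 47.7% of all genes tested. Kif11, Kif23 and Kif20b fell at an adjusted p under 0.05 (edgeR quasi-likelihood test with Benjamini-Hochberg adjustment over all genes), 0 rose, and the other 7 did not pass. Over all genes 2.10% were called lower and 0.908% higher. Kif11 and Kif20b lie on chromosome 19, where 14.7% of the other tested genes were called lower. Neither was called with chromosome medians removed. In 6 of the 10 (Kif11, Kif23, Kif4, Kif20a, Kif20b and Kif2c) every transformed library lay below every parental one, an arrangement found in 9.69% of all genes tested. From bulk RNA, fewer cells in division and less of each transcript per dividing cell cannot be told apart.

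**Figure D1:**
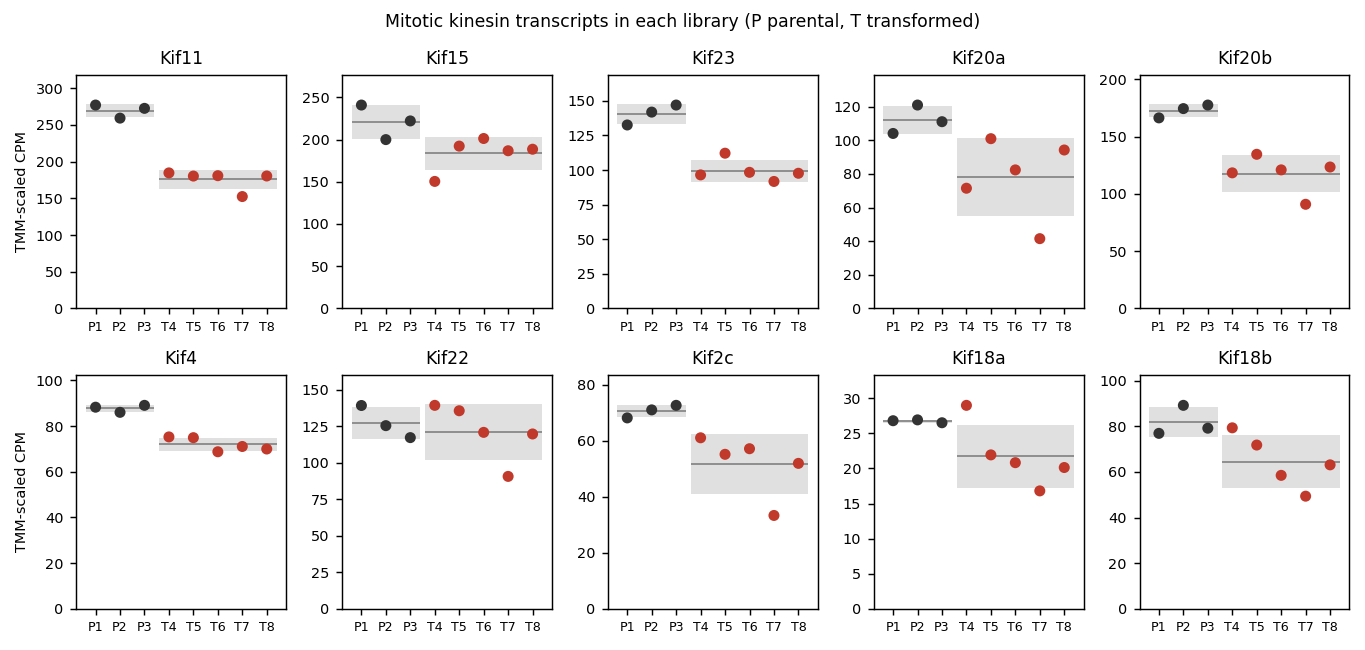
TMM-scaled CPM (vertical axes, linear, from 0) of each mitotic kinesin in the 3 parental (P1 to P3, dark) and 5 transformed (T4 to T8, red) libraries, with the group mean as a line and ± 1 SD as a band. Kif11 stands at 259 CPM or more in parental and 185 CPM or less in transformed libraries, whereas the groups overlap in Kif15, Kif22, Kif18a and Kif18b.

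Of the pair of motors that separate the spindle poles, Kif11 fell and Kif15 did not pass. Kif11, the tetrameric motor known as Eg5 that slides antiparallel microtubules apart (ENSMUSG00000012443, chromosome 19, 37376403 to 37421859 in GRCm38), was at 277, 259 and 273 CPM in parental 1, 2 and 3. It was at 185, 180, 181, 152 and 180 CPM in transformed 4 to 8. The groups did not overlap, 4 of the transformed libraries lay close together, and transformed 7 was the lowest. Kif11 fell 1.53-fold, with a log2 fold change of -0.62 (SE 0.085, edgeR adjusted p = 0.0128), from 269.6 ± 9.24 (SD, n = 3) to 176 ± 13.1 CPM (SD, n = 5). The exact 2-sided permutation test of its log2 levels gave p = 0.0179, the smallest this design allows. Without parental 1, 2 or 3 in turn the call was lost (edgeR adjusted p = 0.0658, 0.0677 and 0.1), and likewise without transformed 6 (adjusted p = 0.0505), while the log2 fold change stayed between -0.64 and -0.57 with any library left out. With chromosome medians removed it was -0.28 (edgeR adjusted p = 0.0785), and it was not called within lane 7 either.

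Kif15, which can take over pole separation when Kif11 is weak (ENSMUSG00000036768, chromosome 9, 122951046 to 123018733), was at 241, 200 and 222 CPM in the parental libraries. Transformed 4 to 8 had 150, 192, 201, 187 and 189 CPM. Transformed 4 was the lowest, and transformed 6 lay within the parental range. The log2 fold change, -0.27 (SE 0.11), did not reach the threshold (edgeR adjusted p = 0.200; exact permutation test p = 0.0536) and missed it in each of the 20 alternatives. Per kilobase of merged exons, Kif11 stood at 1.70 to 1.92 times Kif15 in parental libraries and at 1.39, 1.33, 1.21 and 1.41 times in transformed 5 to 8. Transformed 4, where both were low, kept a ratio of 1.81.

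Motors of the central spindle and of cytokinesis included both other genes that passed. Kif23, the motor subunit of centralspindlin (ENSMUSG00000032254, chromosome 9, 61915905 to 61946774), had 133, 142 and 147 CPM in parental 1, 2 and 3. It had 96.5, 112, 98.4, 91.8 and 97.7 CPM in transformed 4 to 8. The groups were well apart, with transformed 5 the nearest to the parental range. Kif23 fell 1.41-fold (log2 fold change -0.50, SE 0.086, edgeR adjusted p = 0.0273; exact permutation test p = 0.0179). The call was lost without any 1 of the parental libraries, without transformed 6 or transformed 8, and with the sequencing lane in the model (edgeR adjusted p up to 0.173), with a log2 fold change from -0.55 to -0.46 when 1 library was left out.

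Kif20b, a relative of Kif20a that acts in the completion of cytokinesis (ENSMUSG00000024795, chromosome 19, 34922361 to 34975745), was at 166, 175 and 178 CPM in parental cells. In transformed 4 to 8 it was at 118, 135, 121, 91.0 and 124 CPM. Its fall was 1.47-fold (log2 fold change -0.55, SE 0.12, edgeR adjusted p = 0.0447; exact permutation test p = 0.0179). It was the nearest of the calls to the threshold, which it missed with upper-quartile factors (edgeR adjusted p = 0.0521), with the sequencing lane in the model (0.0882), with a GC trend removed (0.0631) and without any of parental 1, 2 or 3 or transformed 5, 6 or 8 (from 0.0710 to 0.226). With chromosome medians removed its log2 fold change was -0.22 (adjusted p = 0.256), and it was not called within lane 7 either.

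Kif20a, which brings the chromosomal passenger complex to the central spindle (ENSMUSG00000003779, chromosome 18, 34624613 to 34633277), varied most among the transformed libraries. It was at 104, 121 and 111 CPM in parental libraries and at 71.5, 101, 82.4, 41.5 and 94.3 CPM in transformed 4 to 8. All 5 lay below the parental range, but transformed 5 by only a few CPM and transformed 7 by more than 60 CPM. With a coefficient of variation of 29.9% in the transformed group against 7.58% in the parental one, Kif20a, at a log2 fold change of -0.52 (SE 0.24), was not called (edgeR adjusted p = 0.247). Without transformed 7 it was -0.36 (adjusted p = 0.103). Kif20a shares 29.3% of its exon bases with the opposite-strand gene Cdc23, and reads from the shared part cannot be assigned without strand.

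Neither chromatin motor passed the test. Kif4, a chromokinesin that works with condensin on the arms and with PRC1 on the central spindle (ENSMUSG00000034311, chromosome X, 100625737 to 100727214), was at 88.2, 86.0 and 89.1 CPM in parental cells. It was at 75.2, 74.9, 68.7, 71.0 and 69.9 CPM in transformed 4 to 8. This was the tightest of the 10 genes among transformed libraries (coefficient of variation 4.09%), with no overlap. At -0.29 (SE 0.073), its log2 fold change was short of the threshold (edgeR adjusted p = 0.0675; exact permutation test p = 0.0179), and it passed in 6 of the 20 alternatives, among them DESeq2 (adjusted p = 0.00218) and the fits without transformed 4 or transformed 7. Kif4 shares 15.1% of its exon bases with the opposite-strand gene Pdzd11.

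Kif22, the chromokinesin that pushes chromosome arms away from the poles (ENSMUSG00000030677, chromosome 7, 127027729 to 127042471), had the log2 fold change nearest to 0. Parental libraries had 139, 125 and 117 CPM, and transformed 4 to 8 had 139, 136, 121, 90.6 and 120 CPM. Only transformed 7 lay below the parental range, and transformed 4 stood level with the highest parental library. The log2 fold change of -0.07 (SE 0.14, edgeR adjusted p = 0.809) turned positive in 3 of the 20 alternatives, among them the fit without transformed 7 (0.018).

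The motors that shorten microtubules or damp chromosome movement did not pass. Kif2c, the depolymerase that corrects faulty attachments at the centromere (ENSMUSG00000028678, chromosome 4, 117159639 to 117182639), was at 68.1, 71.0 and 72.6 CPM in parental and 61.0, 55.1, 57.1, 33.3 and 51.9 CPM in transformed libraries 4 to 8. All 5 were below the parental range, with transformed 7 far below the rest. Its log2 fold change of -0.45 (SE 0.17, edgeR adjusted p = 0.173) became a call at -0.33 without transformed 7 (adjusted p = 0.0411). Kif18a, which shortens and steadies kinetochore microtubules (ENSMUSG00000027115, chromosome 2, 109280738 to 109341747), was at 26.8, 26.9 and 26.5 CPM in parental libraries. It was at 29.0 CPM in transformed 4, above all 3 of them, and at 21.9, 20.8, 16.8 and 20.1 CPM in transformed 5 to 8. Its log2 fold change was -0.30 (SE 0.16, edgeR adjusted p = 0.303), and -0.42 without transformed 4 (adjusted p = 0.0324). Kif18b, its relative on astral microtubules (ENSMUSG00000051378, chromosome 11, 102905529 to 102925124), was at 76.9, 89.2 and 79.2 CPM in parental and 79.4, 71.8, 58.5, 49.4 and 63.1 CPM in transformed libraries. Transformed 4 sat inside the parental range for Kif18b, which at a log2 fold change of -0.34 (SE 0.15), was not called (edgeR adjusted p = 0.213).

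**Figure D2:**
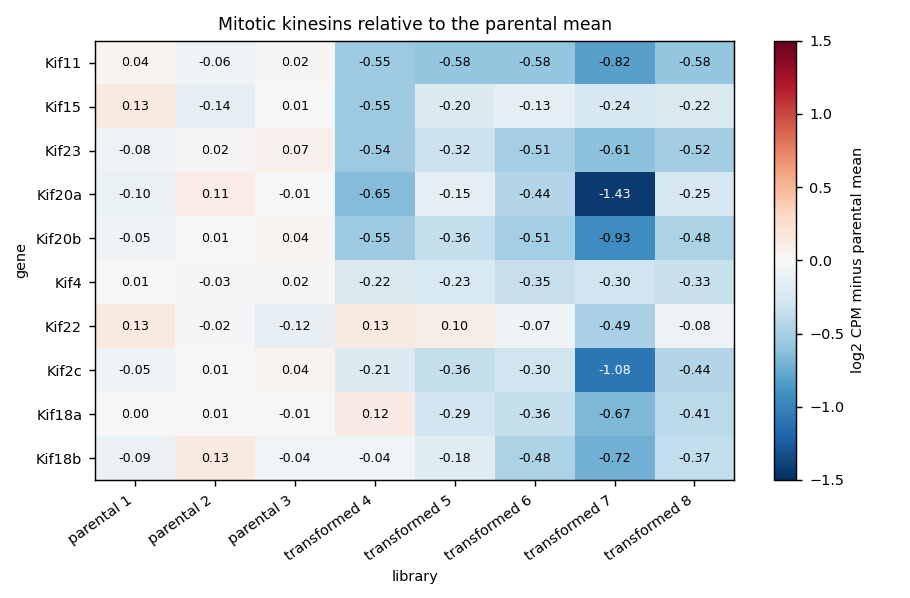
Log2 CPM of each mitotic kinesin (rows) in each library (columns) minus the mean of the 3 parental libraries, as colour and number. Transformed 7 is the lowest column, down to -1.43 in Kif20a and -1.08 in Kif2c, and transformed 4 holds values of 0.12 in Kif18a and 0.13 in Kif22.

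The transformed libraries did not share 1 pattern. On the log2 scale relative to the parental mean, the mean over the 10 genes was -0.30, -0.26, -0.37, -0.73 and -0.37 in transformed 4 to 8, while the median of all genes stayed between -0.0094 and 0.0081. In transformed 7 all 10 kinesins were below every parental library, where 41.2% of all tested genes were. In transformed 4 it was 7 of 10 against 33.1%, in transformed 5 it was 9 against 36.8%, in transformed 6 it was 8 against 35.2%, and in transformed 8 it was 9 against 38.0%. Among the transformed libraries, transformed 7 held the lowest value of 8 of the 10 genes, and of 32.4% of all genes tested. Compared with the mean of the other transformed libraries it was lower by 52.4% in Kif20a, 40.8% in Kif2c and 29.7% in Kif22, but by 1.60% in Kif4, and in Kif15 it stood at 1.02 times that mean. Transformed 7 also had the fewest total counts and a U2af1 level in the parental range. Without transformed 4 and transformed 7 together, 8 of the 10 passed as lower, all but Kif15 and Kif22, while the share of all genes called lower was 16.1%. The labels place 2 libraries of each group on sequencing lane 6, where 5 passed (Kif11, Kif23, Kif4, Kif20b and Kif2c) against 10.8% of all genes. On lane 7, with 1 parental library, 0 kinesins and 0.00% of all genes passed in edgeR, while 3 kinesins and 259 genes (1.39%) were lower at an unadjusted p under 0.05.

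The number of kinesins called lower differed between the alternatives, and so did the share of all genes called lower, given in brackets. It was 3 with RLE factors (2.07%), limma-voom (2.38%), no filter on low counts (1.14%) and a CPM filter (2.62%). It was 4 in DESeq2, which added Kif4 (5.67%), and 2, Kif11 and Kif23, with upper-quartile factors (2.11%) or a GC trend removed (2.28%). With the lane in the model Kif11 alone was called (0.445%). Leaving out transformed 4 gave 5, with Kif4 and Kif18a added to the 3 (9.26%), and leaving out transformed 7 gave 5, with Kif4 and Kif2c added (4.76%). Without transformed 5 Kif11 and Kif23 were called (0.397%), without transformed 8 Kif11 (0.351%), and without transformed 6 none (0.329%). None was called without parental 1 (0.354%), parental 2 (0.183%) or parental 3 (0.116%). At an unadjusted p under 0.05 these edgeR fits had 4, 5 and 4 kinesins lower, where 8.95%, 8.17% and 7.24% of all genes were.

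**Figure D3:**
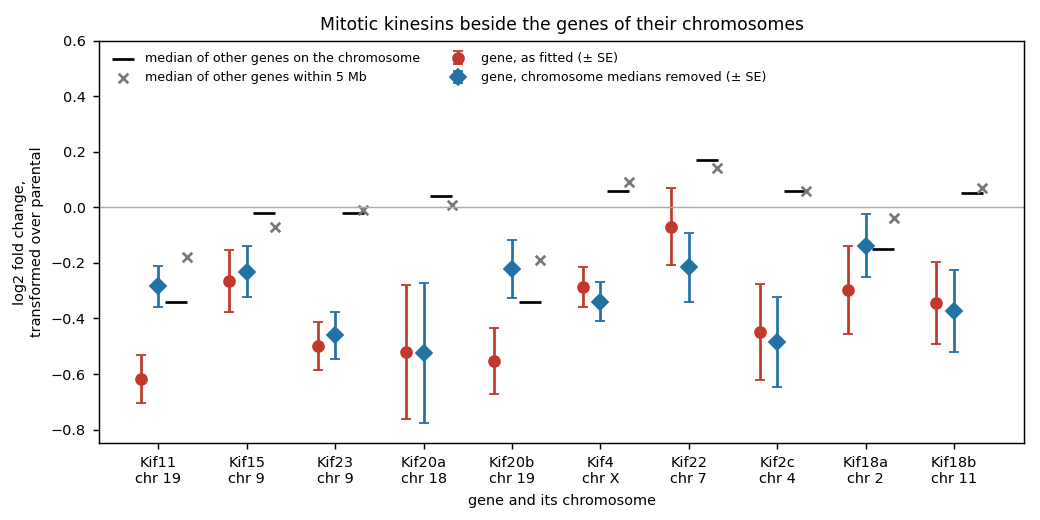
Log2 fold change (vertical axis, transformed over parental, ± SE) of each mitotic kinesin as fitted and after chromosome medians were removed from every library, beside the median of the other tested genes of its chromosome and within 5 Mb. On chromosome 19, whose median is -0.34, Kif11 moves from -0.62 to -0.28 and Kif20b from -0.55 to -0.22. Kif23, on chromosome 9, moves from -0.50 to -0.46.

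The median log2 fold change differed between the chromosomes that hold the kinesins. Kif11 and Kif20b both lie on chromosome 19, where the median log2 fold change of the 510 other tested genes was -0.34 and 14.7% were called lower. The chromosome's median was between -0.41 and -0.29 in each of the 5 transformed libraries. Within 5 Mb the medians were -0.18 over 69 genes for Kif11 and -0.19 over 46 genes for Kif20b, and 10 and 8 of these genes had a lower log2 fold change than the kinesin. When each chromosome's median in each library was removed before the fit, Kif11 went to -0.28 (SE 0.073, edgeR adjusted p = 0.0785) and Kif20b to -0.22 (SE 0.10, adjusted p = 0.256), so neither was called. All 5 transformed libraries lay below the 3 parental ones for both genes after their chromosome's median was subtracted. The share of all genes with that arrangement after the same step was not counted. For Kif20b the margin was narrow, with transformed 5 at -0.05 and parental 1 at -0.03. Kif23 kept its call in that fit (-0.46, SE 0.084, edgeR adjusted p = 0.0362), and Kif4, on a chromosome with a median of 0.06, gained one (-0.34, SE 0.070, adjusted p = 0.0487). Kif22 lies on chromosome 7, whose median was 0.17, and its log2 fold change went from -0.07 to -0.22 (adjusted p = 0.348). Over the 10 genes the median was -0.31 in that fit, and 2 were called lower against 1.29% of all genes.

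In transformed 4 the genes around Kif15 and Kif20a stood apart from those of the other transformed libraries, and their part in the kinesin levels was not tested. Around Kif15 the 75 genes within 5 Mb had a median of -0.32 in transformed 4 (log2, relative to the parental mean) and between -0.04 and 0.02 in transformed 5 to 8, while Kif15 was at -0.55 in transformed 4 and between -0.24 and -0.13 in the others. Around Kif20a the median was -0.25 in transformed 4 and 0.01 to 0.10 in the others. Chromosome 2, which holds Kif18a, had a median of 0.05 in transformed 4 and between -0.25 and -0.22 in transformed 5 to 8, and Kif18a was at 0.12 in the former and between -0.67 and -0.29 in the latter. Within 5 Mb of Kif18a the medians were closer together, at 0.06 in transformed 4 and between -0.13 and -0.02 in the others. After its chromosome's median was removed, Kif18a had a log2 fold change of -0.14 (SE 0.11, edgeR adjusted p = 0.515). In transformed 7 Kif20a and Kif2c were at -1.43 and -1.08. The medians of their chromosomes there were 0.10 and 0.00, and those within 5 Mb were 0.10 and -0.01. The cause of the low values was not tested.

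**Figure D4:**
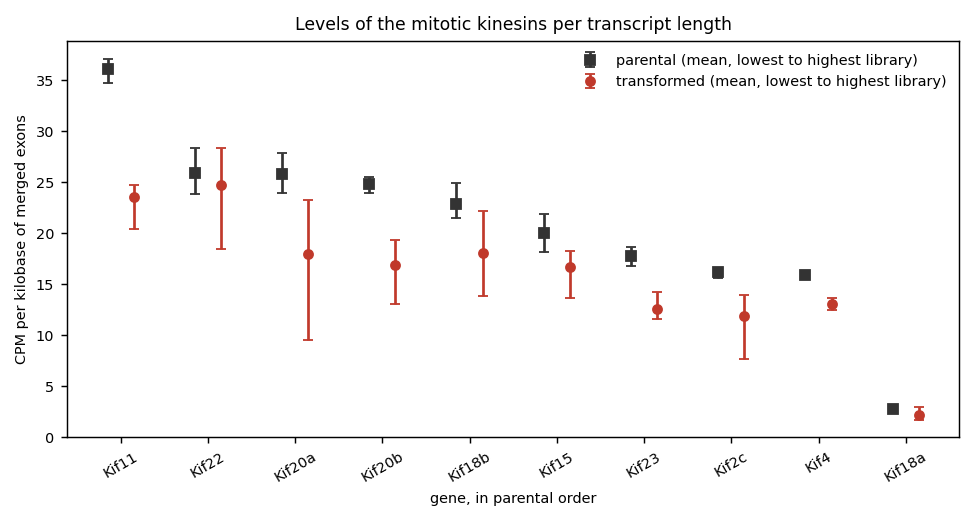
Level of each mitotic kinesin in CPM per kilobase of merged exon length (vertical axis, linear, from 0), as the group mean with bars from the lowest to the highest library. Kif11 leads in parental cells at 36.1 and Kif18a is last at 2.72, and in transformed cells Kif11 (23.6) and Kif22 (24.7) overlap.

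Levels were compared between genes per kilobase of merged exons. These join all exons annotated for a gene, so the order depends on that annotation. Kif20a and Kif4 also share exon bases with opposite-strand genes, as given above. In parental cells Kif11 was the most abundant at 36.1 ± 1.24 CPM per kb (SD, n = 3), above the range of every other member. Kif22 (25.96), Kif20a (25.8), Kif20b (24.9), Kif18b (22.9), Kif15 (20.04) and Kif23 (17.8) followed in an order in which each overlapped its neighbour. Kif2c (16.2) and Kif4 (15.9) came below Kif23 and overlapped each other. Kif18a was lowest at 2.72 ± 0.022 CPM per kb. In transformed cells Kif22 (24.7 ± 3.92, SD, n = 5) and Kif11 (23.6 ± 1.76) overlapped at the top. Summed over the 10 genes, the level was 208 to 209 CPM per kb in the parental libraries and 165, 175, 160, 126 and 162 in transformed 4 to 8. Kif11 made up 16.6% to 17.9% of that sum in parental and 13.8% to 16.2% in transformed libraries, and Kif22 made up 11.5% to 13.7% and 14.7% to 17.2%, with no overlap for either. The share of Kif20a was 7.59% in transformed 7 and between 9.97% and 13.4% in every other library.

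**Figure D5:**
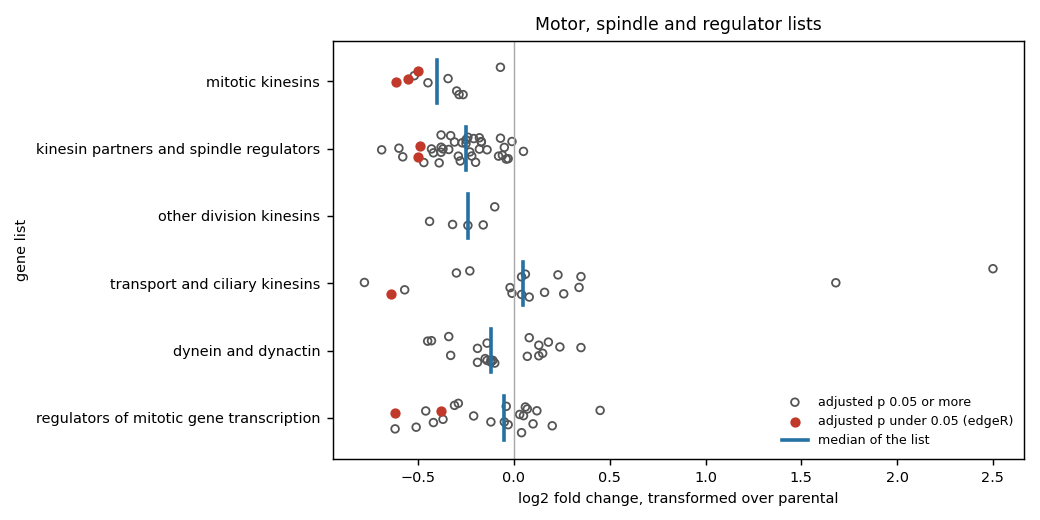
Log2 fold change (horizontal axis, transformed over parental) of every tested gene in the mitotic kinesins and 5 lists, with filled points for an edgeR adjusted p under 0.05 and a bar at each list's median. The kinesin median is -0.40, the median of partners and spindle regulators -0.25, and that of transport and ciliary kinesins 0.05.

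Genes that work with these motors were read from the same fit. Of 39 partners and spindle regulators, 38 had negative log2 fold changes (median -0.25), 2 were called lower and 0 higher. Both calls, Cep55, a protein of the final cut between daughter cells, and Incenp, the scaffold of the chromosomal passenger complex, lie on chromosome 19. Cep55 fell 1.41-fold, from 141 ± 1.71 (SD, n = 3) to 100 ± 7.37 CPM (SD, n = 5; edgeR adjusted p = 0.0250), and Incenp fell 1.41-fold, from 334 ± 15.1 to 238 ± 22.5 CPM (edgeR adjusted p = 0.0338). Among all genes 2.10% were called lower. Both calls were lost with the lane in the model (edgeR adjusted p = 0.0576 and 0.0729), without any 1 of the parental libraries and without transformed 5, 6 or 8. With chromosome medians removed Cep55 was at -0.17 and Incenp at -0.16, and 0 of the 39 passed. Racgap1, the partner of Kif23 in centralspindlin, and Tpx2, which binds Kif11, stayed short of the threshold. Their log2 fold changes were -0.29 (SE 0.12) and -0.39 (SE 0.12). Tacc3, a spindle protein, was at -0.47 (SE 0.11, edgeR adjusted p = 0.0590). The proliferation marker Mki67 was at -0.04 (SE 0.13). Of the condensin genes, partners of Kif4, Smc2 was at 0.05 (SE 0.11), the only positive value of the 39, and Smc4 at -0.01 (SE 0.08). Ncapg was at -0.03 (SE 0.09), Ncapd2 at -0.37 (SE 0.15) and Ncaph at -0.43 (SE 0.14), and none of these was called.

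Among the other kinesins of cell division edgeR called 0. In that fit 3 (Kifc1, Kif14 and Cenpe) were lower at an unadjusted p under 0.05, as were 11.6% of all genes tested. DESeq2 called 1 lower (Kifc1, adjusted p = 0.0257), against 5.67% of all genes. All 5 tested had negative log2 fold changes (median -0.24): Kifc1, the minus-end motor that opposes Kif11, at -0.44 (SE 0.12, edgeR adjusted p = 0.0859), Kif14, a cytokinesis motor, at -0.32 (SE 0.11), Cenpe, which carries chromosomes to the spindle equator, at -0.24 (SE 0.10), Kif24 at -0.16 (SE 0.17) and Kif2a at -0.10 (SE 0.073). Kif2b had 0 counts in all libraries. Kifc1, Kif14 and Cenpe lay below all 3 parental libraries in 5 of 5 transformed ones, as did 9.69% of all genes tested. The 18 tested transport and ciliary kinesins had 7 negative and 11 positive values, with a median of 0.05. Among 23 regulators of mitotic transcription, 14 were negative (median -0.05). Of these, E2f1, on chromosome 2, fell 1.54-fold from 40.2 ± 1.12 (SD, n = 3) to 26.1 ± 3.81 CPM (SD, n = 5; edgeR adjusted p = 0.0368). E2f8, an E2F repressor, fell 1.30-fold from 140 ± 8.11 to 108 ± 6.71 CPM (edgeR adjusted p = 0.0469). Both calls were lost with the lane in the model (adjusted p = 0.0721 and 0.0997), without any 1 of the parental libraries and without transformed 5, 6 or 8, and that of E2f8 also with upper-quartile factors (0.0547) and without the low-count filter (0.0852). Foxm1 and Mybl2, the activators named above, were at -0.29 (SE 0.09) and -0.46 (SE 0.17) and did not pass, and the MuvB subunits Lin9, Lin37, Lin52 and Lin54 lay between -0.05 and 0.05.

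Profiles over the 8 libraries were compared by the root mean square difference of log2 CPM relative to the parental mean, over 9135 other genes with an average log2 CPM of at least 3, leaving out genes without a symbol and those named only as Gm or Rik models. The 5 nearest to the mean kinesin profile were Pdpr (0.046), Vps11 (0.046), Ppp1ca (0.047), Fam160b1 (0.048) and Abcd4 (0.054). Of the single kinesins Kif18b was the closest, at 0.12. These distances cannot be weighed against each other, because the 5 genes are the nearest of 9135 searched and the target is an average over 10 kinesins. Nearest to Kif11 were Cenpl (0.060), on chromosome 1, Cuedc2 (0.062), on chromosome 19, and Narf (0.065), on chromosome 11.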

How the data were processed

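PolyA RNA libraries of 3 parental and 5 transformed samples were analysed from 1 deposited table of raw read counts per Ensembl gene, with 1 column per library and 0 others. Per the submitters' processing notes, mm10 and GRCm38.p5 were the builds, and the tools included featureCounts 1.5.3 and STAR 2.5.3a. Which gene models were counted, and how strand and multiply mapped reads were handled, is not given there. Symbols, GRCm38 positions and merged exon lengths came from GENCODE M21, in which 105 of the 53465 genes, with 0.0212% of the counts, had no match. The groups were compared by the quasi-likelihood test of edgeR 4.0.16 in R 4.3.3, with robust dispersions, TMM scaling, the filterByExpr filter and no covariate, adjusted over all 17733 tested genes at a threshold of 0.05. The common biological coefficient of variation was 0.230. SE is the log2 fold change over the square root of F. CPM values are TMM-scaled, and log2 levels use a prior count of 2. Alternatives were DESeq2 1.42.0, limma-voom (limma 3.58.1), upper-quartile or RLE factors, a filter on CPM of at least 1 in 3 libraries, no filter at all, the sequencing lane in the model, fits within lane 6 or lane 7, omission of single libraries or of transformed 4 and 7 together, chromosome medians removed, and a GC trend removed. Named genes were the 10 kinesins, U2af1, the 3 smallest p-values of each of the 5 lists, every tested other division kinesin and the nearest profiles; further list genes were chosen for their roles after their values were seen. The kinesins, lists, windows and motifs were chosen with earlier results of these data known. Simulated counts for 17678 genes of this comparison, with known changes, gave edgeR calls for 16.4% of 1.5-fold, 47.7% of 2-fold and 90.8% of 4-fold changes, and 4.72% of its calls were false, against 28.2% in DESeq2. The counts were drawn once and separately for each gene, without shifts shared by a chromosome or a library. These rates may therefore not hold for the real libraries. Protein sequences were not used here.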

Additional observations from a re-analysis of the deposited data

Results flagged for a closer look

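Among 36 named genes, the lowest and the highest transformed library were each set against the other 4, and 5 genes had an end that stood far from the rest. Chance flags about 1 in 20 groups of libraries. Kif11 in transformed 7 was at 152 CPM, with the next lowest at 180 CPM. Kif15 in transformed 4 was at 150 CPM, with the next at 187 CPM. Pdpr in transformed 7 was at 30.1 CPM against 41.0 CPM, and Vps11 in transformed 7 at 37.5 CPM against 51.0 CPM. The dynein subunit Dync1li2 stood apart in the other direction, at 57.4 CPM in transformed 7 against 50.7 CPM in the next highest library. Pdpr and Vps11 were named for their likeness to the mean kinesin profile, in which transformed 7 is lowest, so their values there follow from that choice.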

How the results depend on the processing

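No paired analysis was possible because the groups share no replicate numbers. Over all genes 161 were called higher and 372 lower, and over the 5 lists beside the kinesins 0 and 5. DESeq2 gave 850 and 1001 (lists 1 and 17), the lane in the model 15 and 79 (lists lower 0), lane 6 alone 1682 and 1883 (lists 3 and 30), lane 7 alone 0 and 0 (lists lower 0), the fit without transformed 4 and 7 2238 and 2804 (lists 3 and 39), and removal of chromosome medians 107 and 228 (lists lower 2). Without the low-count filter 1 list gene was higher. With 1 library left out, higher calls ran from 3 to 1100 and lower calls from 21 to 1628, and list calls from 0 to 2 and from 0 to 26. The 3 mitotic kinesins called lower became 1 with the lane in the model, 5 in lane 6, 0 in lane 7, 8 without transformed 4 and 7, and 0 to 5 with 1 library left out: 0 without parental 1, 2 or 3 or transformed 6, 1 without transformed 8, 2 without transformed 5, and 5 without transformed 4 or transformed 7. They were 4 in DESeq2, 2 with upper-quartile factors, GC trend removal or chromosome medians removed, and 3 elsewhere. The cause was not tested. Kif22 turned positive in lane 6 (0.0071), without parental 1 (0.0058) and without transformed 7 (0.018), and ran from -0.1259 to 0.018 with 1 library left out, and the median around Kif23 went from -0.01 to 0.03 with windows of 2 Mb and 10 Mb. The mean kinesin profile moved by less than its spread with RLE factors or a prior count of 0.5.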

Other observations

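Away from cell division, the motors of vesicle and cilium transport held 1 call among 18 tested genes. Over all genes 2.10% were called lower. Kif3b, a subunit of the kinesin-2 motor (chromosome 2), fell 1.56-fold, from 46.0 ± 2.54 (SD, n = 3) to 29.5 ± 3.52 CPM (SD, n = 5; edgeR adjusted p = 0.0307), with 5 of 5 transformed libraries below the parental range. With chromosome medians removed it was at -0.46 on the log2 scale (adjusted p = 0.073). The call was also lost with the lane in the model (adjusted p = 0.0672), without any 1 of the parental libraries and without transformed 5, 6 or 8. Kif5c, a kinesin-1 heavy chain, was near the detection limit in parental cells (0.137, 0.0600 and 0.0658 CPM) and at 0.546, 0.298, 0.396, 1.11 and 0.254 CPM in transformed 4 to 8, a difference that missed the threshold (edgeR adjusted p = 0.0609). It was called higher in DESeq2 (adjusted p = 0.0046) and without the low-count filter (edgeR adjusted p = 0.0445). With the lane in the model it was not (edgeR adjusted p = 0.121). Dynein and dynactin, the minus-end motor complex of the spindle poles, had 0 calls among 21 genes in edgeR. DESeq2 called 2 of them lower, against 5.67% of all genes. Of the 21, 13 had negative log2 fold changes, and the median was -0.12. Actr1a, the dynactin filament subunit, on chromosome 19, was at -0.43 (SE 0.10, edgeR adjusted p = 0.0587).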
